A study of Mus musculus with 9 samples.

Results

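H3K4me3 was compared between 2 chromatin immunoprecipitation libraries of mouse MLL-ENL leukemia, in which a fused Kmt2a and Mllt1 gene drives a myeloid leukemia. One library came from the floxed line (labelled fl) and the other from the deleted line (labelled ΔERT2). Another H3K4me3 library, from deleted cells that also carry Flag-tagged Hhex (labelled ΔERT2 + Hhex-F), is called rescue here and is given beside the results as a reference. These are 3 of the 9 libraries of the series, which also profiled H3K27me3 and the Flag tag in the same lines. All groups carry the MLL-ENL fusion. Which gene is floxed is not in the labels, and Hhex is read as that gene from the series title. The agent that induced the deletion, the number of animals or clones behind a line, and the age of any host are not given in the sources used here. Each line gave 1 library, so no difference has a replicate check, no test between lines was made, and every statement describes these libraries.

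The mark was counted by the authors in a window of 301 bp per gene, apart from 2 genes. Where that window lies relative to the gene start is not stated in the sources used here. A low count therefore does not show that a promoter lacks the mark, as the window may lie elsewhere in the gene. The window of Myb, for example, held 4 floxed and 3 deleted counts, and that of Ezh2 held 2 and 1. Among 26611 named genes, 6867 averaged at least 20 counts between floxed and deleted and are called measured. The other 19744 fell below this minimum, 6743 of them with no count in either library. Depth was 645240 named-gene counts for floxed, 420701 for deleted and 395133 for rescue. A single count was therefore worth 1.55 CPM (counts per 1000000 counts of named genes) in floxed and 2.38 CPM in deleted. Calls required a CPM ratio of deleted over floxed of 1.5 or more (higher) or its inverse or less (lower), with a 95% Clopper-Pearson interval, conditional on the summed count, that left out 1. Intervals follow ratios in parentheses throughout and cover counting error only. Counts are given in the order floxed, deleted and rescue.

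H3K4me3 is the trimethylated form of lysine 4 on histone H3. It is laid down by the SET1 and MLL families of methyltransferases, the latter including the normal product of Kmt2a, and marks the starts of active and poised genes, most of all at CpG islands. At many developmental genes it lies together with H3K27me3, the mark of Polycomb repressive complex 2 (PRC2), in chromatin called bivalent. The MLL-ENL fusion lacks the part of Kmt2a that methylates H3K4 and keeps genes such as Hoxa9 active through transcription elongation factors. Hhex is a homeobox transcription factor of haematopoietic and endodermal cells.

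The group of windows that differed most between the lines belonged to the replication-dependent histone genes, small intronless genes that supply histones during DNA synthesis. Proximal promoters of some members are shown because they carry elements that recur in the family. Each gives the 150 bases up to the base before the RefSeq transcription start (GRCm38.p6, the assembly of mm10), from 5′ to 3′ on the gene strand. Capitals mark CCAAT on either strand (read as ATTGG on the other strand) and TATAAA on the gene strand. Hist1h4j, a histone H4 gene called higher and not shown, holds neither in its 150 bases. Hist1h1b encodes a linker histone (chr13:21780626-21780775, minus strand), Hist1h2ai a histone H2A (chr13:21716262-21716411, plus strand), Hist1h3c a histone H3 (chr13:23745522-23745671, minus strand) and Hist1h2bn a histone H2B (chr13:21753926-21754075, plus strand).
Hist1h1b: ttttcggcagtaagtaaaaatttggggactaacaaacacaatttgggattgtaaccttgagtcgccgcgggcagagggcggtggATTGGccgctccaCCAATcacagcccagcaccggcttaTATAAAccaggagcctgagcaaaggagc
Hist1h2ai: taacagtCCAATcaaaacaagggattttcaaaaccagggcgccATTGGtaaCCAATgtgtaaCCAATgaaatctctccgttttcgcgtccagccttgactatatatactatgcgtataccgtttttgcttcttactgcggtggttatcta
Hist1h3c: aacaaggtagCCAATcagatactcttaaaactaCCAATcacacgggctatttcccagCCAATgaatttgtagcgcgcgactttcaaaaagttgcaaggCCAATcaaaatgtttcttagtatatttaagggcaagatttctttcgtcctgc
Hist1h2bn: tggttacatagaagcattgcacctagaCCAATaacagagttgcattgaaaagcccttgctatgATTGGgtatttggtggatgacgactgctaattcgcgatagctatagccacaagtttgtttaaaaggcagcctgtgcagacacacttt
For contrast, H3f3b encodes the replication-independent variant H3.3, and its window was among those with the lowest ratios (chr11:116024505-116024654, minus strand). Adm, the hormone gene with the highest ratio of all measured genes, holds none of these elements in its 150 bases (chr7:110627507-110627656, plus strand). Whether the counted windows cover the printed bases, here or at the histone genes, is not known. H3f3b, whose window had a low ratio, holds both CCAAT and TATAAA. There the capitals also mark the octamer ATTTGCAT, which lies on the other strand.
H3f3b: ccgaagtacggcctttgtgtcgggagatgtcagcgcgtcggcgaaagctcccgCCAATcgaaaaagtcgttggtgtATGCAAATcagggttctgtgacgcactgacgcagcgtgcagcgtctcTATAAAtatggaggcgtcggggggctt
Adm: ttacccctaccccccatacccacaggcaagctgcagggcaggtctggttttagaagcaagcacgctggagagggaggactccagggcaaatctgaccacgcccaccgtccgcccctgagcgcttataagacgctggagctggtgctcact

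Most measured windows held their share of H3K4me3 after deletion. The median log2 ratio over the 6867 measured genes was -0.03, with quartiles of -0.25 and 0.18, and 3687 genes lay below 0 against 3180 above. In the deleted library 309 genes were lower, 4.50% of those measured, and 219 were higher, 3.19%, which makes 528 called genes or 7.69%. These shares over all measured genes are the ones to set beside the counts of called list members below. At 2-fold the called genes numbered 86 lower and 56 higher. The 10 windows with the most signal, among them those of Yes1, Pygo2, Rtn4r, Zswim5, Snord68 and Snora64, held 282 to 330 floxed counts and had ratios of 0.927 to 1.10. With 80 counts as the median floxed level, many ratios of 1.5 are within counting error: 459 genes had a ratio at or below 1 over 1.5 and 303 a ratio of at least 1.5, whether called or not. The split between lower and higher depends on the scaling. It was 58.5% lower among called genes on named-gene totals, 73.3% with TMM factors from edgeR, 70.3% with size factors from DESeq2 and 16.1% when the pooled ribosomal protein windows were set equal.

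**Figure D1:**
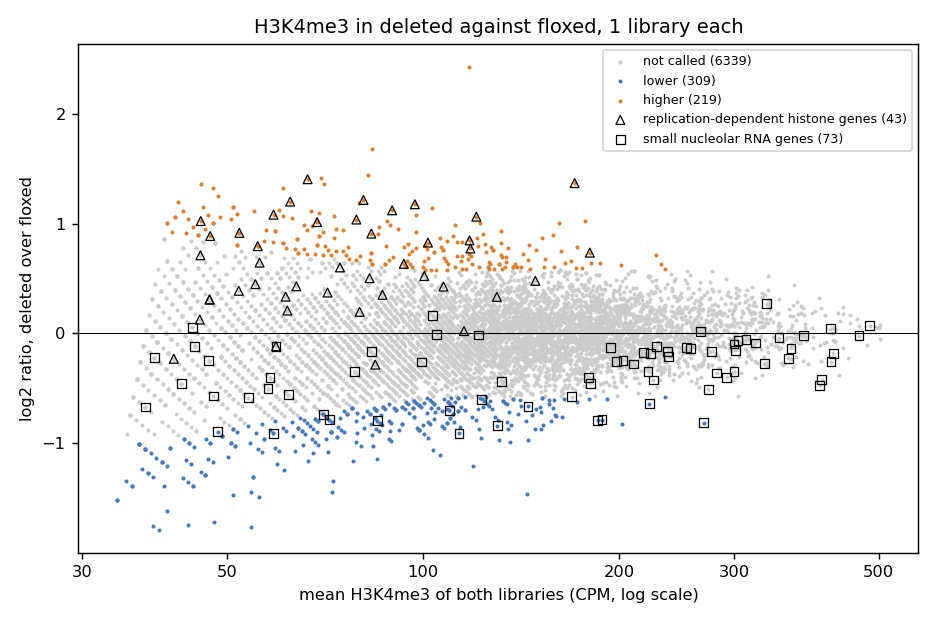
Log2 ratio of H3K4me3 (deleted over floxed, prior count 1) against the mean of both libraries in CPM on a log axis, 1 point per measured gene, with called genes in blue (309 lower) and orange (219 higher). Histone genes (triangles, 43) lie mostly above 0 and small nucleolar RNA genes (squares, 73) mostly below, and Adm is the highest point.

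The rescue library was not used in the calls. Lower genes had a median of 108 CPM in floxed, 61.8 in deleted and 96.2 in rescue, and higher genes 68.2, 119 and 63.3. Genes not called had 127, 126 and 129. The deleted library took part in choosing both sets, so the rescue medians, which lie near the floxed ones, are given as values only.

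H3K4me3 at replication-dependent histone genes was higher in the deleted library. All 68 such genes in the files together held 1987, 2054 and 1078 counts, which is 3079, 4882 and 2728 CPM. The deleted library thus stood above both others, at 1.59 (1.49 to 1.69) times floxed, and rescue was at 0.559 (0.519 to 0.602) times deleted. Of 43 measured members, 20 were called higher (46.5%, against 3.19% of all measured genes), none was called lower, and 40 lay above 0. Their median log2 ratio was 0.63 and stayed between 0.57 and 0.83 under the 5 other scalings.

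Every core and linker class took part, to unequal degrees. The linker histone H1 genes, whose proteins bind between nucleosomes, were called higher in 4 of 4 measured members, with 199, 273 and 123 pooled counts and a ratio of 2.10 (1.75 to 2.54). Hist1h1b had 61, 104 and 42 counts, a ratio of 2.61 (1.89 to 3.65). Hist1h1a had 50, 69 and 29 counts, and Hist1h1e had 47, 55 and 35. In each of these H1 windows the deleted library was the highest in CPM. Among genes for core histones, H4 windows pooled to 424, 453 and 243 counts with a ratio of 1.64 (1.43 to 1.88), and 4 of 9 measured were called. H3 windows gave 1.60 (1.40 to 1.82) with 4 of 10, and H2B windows 1.59 (1.39 to 1.82) with 5 of 9. H2A windows gave the lowest pooled ratio, 1.32 (1.15 to 1.5), with 3 of 11. Single examples were Hist1h2ai with 23, 41 and 18 counts, Hist1h2bn with 31, 48 and 20, Hist1h3c with 38, 57 and 18, and Hist1h4j with 36, 52 and 19. Histone genes are near-identical copies, and the handling of reads that fit several of them is not stated in the sources used here, so single members are uncertain.

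**Figure D2:**
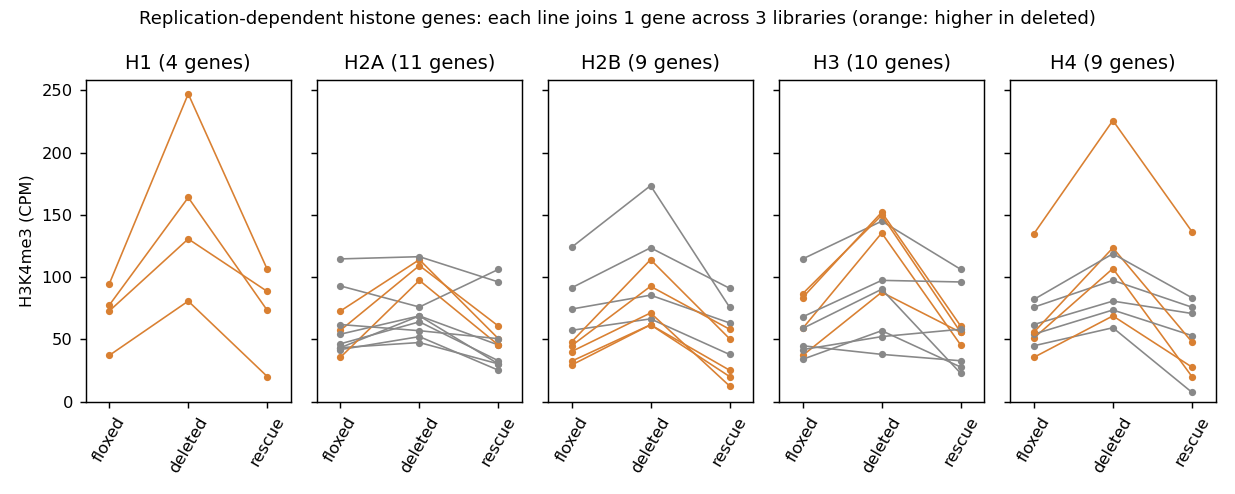
H3K4me3 in CPM for each measured histone gene in the floxed, deleted and rescue libraries, 1 line per gene and 1 panel per histone class, with genes called higher in orange. All 4 H1 lines peak in the deleted library, and 3 of 11 H2A lines are called.

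By genomic cluster, the Hist1 genes on chromosome 13 held 1511, 1687 and 800 counts, a ratio of 1.71 (1.60 to 1.84), with 19 of 34 measured genes called. The Hist2 genes on chromosome 3 held 378, 307 and 221 counts, a ratio of 1.25 (1.07 to 1.45), with 1 of 7 called, Hist2h2be with 29, 39 and 23 counts. The Hist3 genes on chromosome 11 held 97, 60 and 57 counts, a ratio of 0.949 (0.676 to 1.32), with none of 2 called. Chromosome 13 had 26 higher genes among 256 measured, 10.2%. Without its histone genes it had 7 of 222, 3.15%, close to the share over all genes.

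As a group, though not in every class, the histone promoters more often carried sequence features that the ratio did not use. Among the 38 measured histone genes with a single RefSeq start, 84.2% had CCAAT on either strand between 250 bases before and 50 after the start, against 38.7% of 4335 measured genes with a single start. TATAAA on the gene strand was present in 47.4% against 4.48%, and the octamer ATTTGCAT on either strand in 13.2% against 1.59%. By class, CCAAT was in 100% of the H1, H2A, H2B and H3 promoters but in 25% of the 8 H4 promoters. TATAAA ran from 14.3% in H2B to 100% in H1. The octamer was in 36.4% of H2A and 14.3% of H2B promoters and in none of the other classes. Within the family the called genes did not stand out by these letters: CCAAT was in 77.8% of the 18 called and 90.0% of the 20 not called, and TATAAA in 50% and 45%. The median GC content was 45.2% for histone promoters against 61.7% for all measured ones. Across the 4335 genes the rank correlation of GC content with the log2 ratio was 0.09, a description over genes of the same 2 libraries, and the medians of classes by GC ran from -0.06 to 0.03.

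Among genes that act with histones in S phase, the DNA replication list had 1 higher gene of 13 measured, against 3.19% of all measured genes. It was Cdt1, a licensing factor for replication origins, with 58, 67 and 42 counts. The pooled windows of the list held 1138, 837 and 690 counts, a ratio of 1.13 (1.03 to 1.23). The list median was 0.04 and moved between -0.02 and 0.24 with the scaling. Uhrf1, which brings the DNA methyltransferase Dnmt1 to replicated DNA, was also higher at 66, 67 and 37 counts. In the cyclin and cell cycle kinase list none of 16 measured genes was called. Of the genes for histone variants made outside S phase, chosen here for their known role, H3f3b was lower with 55, 10 and 20 counts, a ratio of 0.279 (0.127 to 0.552), and H2afz, the gene of variant H2A.Z, had 73, 37 and 53 counts and was not called.

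The opposite pattern was found at small nucleolar RNA (snoRNA) genes, which lie mostly in introns of host genes and guide the modification of ribosomal RNA. The 123 snoRNA windows in the files held 10737, 5845 and 6646 counts, a ratio of 0.835 (0.809 to 0.862). In CPM these sums were 16640, 13894 and 16820, lowest in deleted. Of 73 measured windows, 14 were called lower (19.2%, against 4.50% of all measured genes) and none higher (against 3.19%), 67 lay below 0, and the median log2 ratio was -0.26. The median stayed below 0 under the 5 other scalings, between -0.32 and -0.06. Box C/D members (Snord), which guide ribose methylation, had 12 of 45 called lower and a pooled ratio of 0.801 (0.769 to 0.835). Box H/ACA members (Snora), which guide pseudouridylation, had 2 of 26 and 0.892 (0.846 to 0.941). Snord12 had 222, 82 and 106 counts, a ratio of 0.567 (0.434 to 0.733). Snord47 had 152, 57 and 76 counts, Snord72 had 154, 58 and 89, and Snord52 had 175, 73 and 110. Other windows of the class showed no such difference, as Snord68 with 305, 209 and 206 counts and Snora73a with 197, 155 and 149.

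By RefSeq gene spans 71 of the 73 measured snoRNA genes lay inside another gene. The 14 lower ones lay in 14 different hosts, among them Gas5, Snhg1, Snhg12, Zfas1, Hspa8, Nop56, Rpl4 and Rpl23a. A snoRNA window near its host start counts reads of the host promoter, and the 2 signals cannot be told apart. The distance to the host start was known for 54 windows, with a median of 1609 bp. It was 2189 bp for the lower windows and 1388 bp for those not called, and its rank correlation with the log2 ratio was -0.38, a description over windows that partly share a host. Of the hosts, 32 were measured in their own windows, with a median log2 ratio of -0.28. Gas5, Eef2, Rpl32, Snhg6 and 1110038B12Rik were called lower there and none higher, against 4.50% and 3.19% of all measured genes. The spliced host transcripts named Snhg and Gas5, a set chosen after their values were seen, held 1145, 596 and 697 counts over 16 windows. In that set Gas5 (93, 37 and 52 counts), Snhg5 (124, 41 and 76) and Snhg6 (90, 34 and 41) were called lower.

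**Figure D3:**
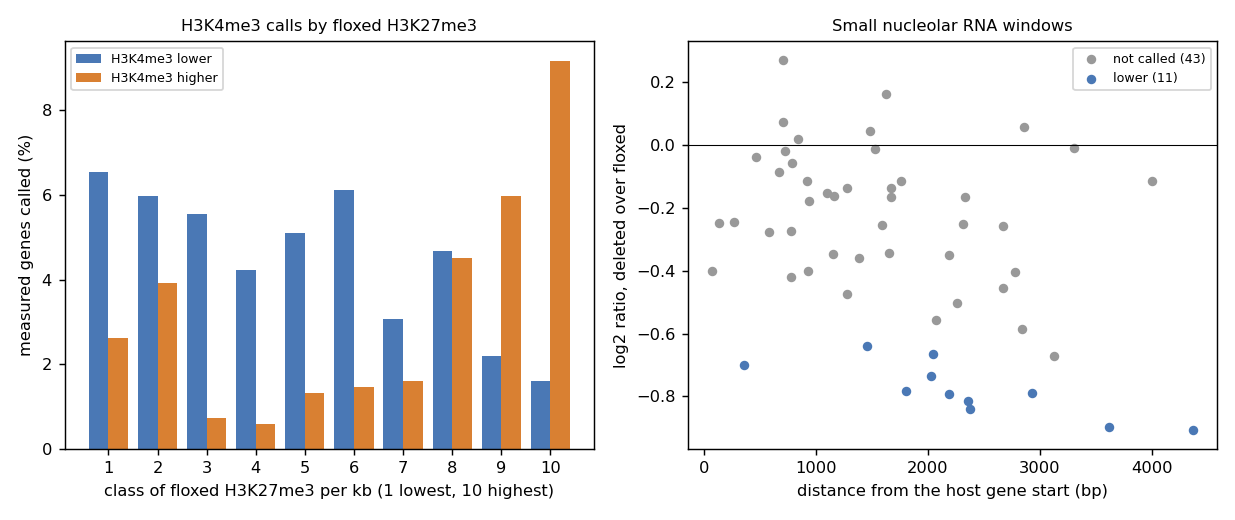
Left, percent of measured genes called lower (blue) or higher (orange) for H3K4me3 in 10 classes of floxed H3K27me3 density; higher calls reach 9.17% in class 10, and the 1060 genes at 0 lie in classes 1 and 2. Right, log2 ratio of snoRNA windows against distance in bp from the host gene start, with the called windows in blue; lower windows have a median distance of 2189 bp against 1388 bp for the rest.

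The ribosome itself showed a smaller difference in the same direction. Windows of 85 cytosolic ribosomal protein genes held 4475, 2541 and 2622 counts, a ratio of 0.871 (0.829 to 0.915). Among 54 measured, 41 lay below 0 with a median of -0.18, but only Rpl32, with 61, 21 and 30 counts, was called lower, and setting the pooled list equal between libraries turned the median to 0.02. Of 16 measured translation factors, the elongation factor genes Eef1a1 (47, 16 and 44 counts) and Eef2 (62, 24 and 41) were lower. The median of that list was -0.22 and lay below 0 under each of the 5 other scalings. Mitochondrial ribosomal proteins, by contrast, had a median of -0.02, with Mrpl16 (140, 60 and 56 counts) and Mrpl43 (34, 8 and 10) lower among 43 measured. Other housekeeping lists had lower calls in 4.35% to 14.3% of their measured members, against 4.50% of all measured genes. The respiratory chain had Ndufb10 (127, 45 and 74 counts) and Ndufb2 (90, 32 and 34) lower of 34, or 5.88%. The proteasome had Psma6 (86, 36 and 41) lower of 23, or 4.35%. Splicing factors had Sf3a2 (40, 11 and 14) and Srsf2 (113, 44 and 77) lower of 18, or 11.1%, and the nuclear pore Ndc1 (40, 7 and 16) and Tpr (89, 32 and 34) lower of 14, or 14.3%. Each of these rests on 1 or 2 genes. No member of these 4 lists was higher, and their medians changed sign with the scaling. In the chaperone and glycolysis lists none of 11 and 10 measured genes was called.

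**Figure D4:**
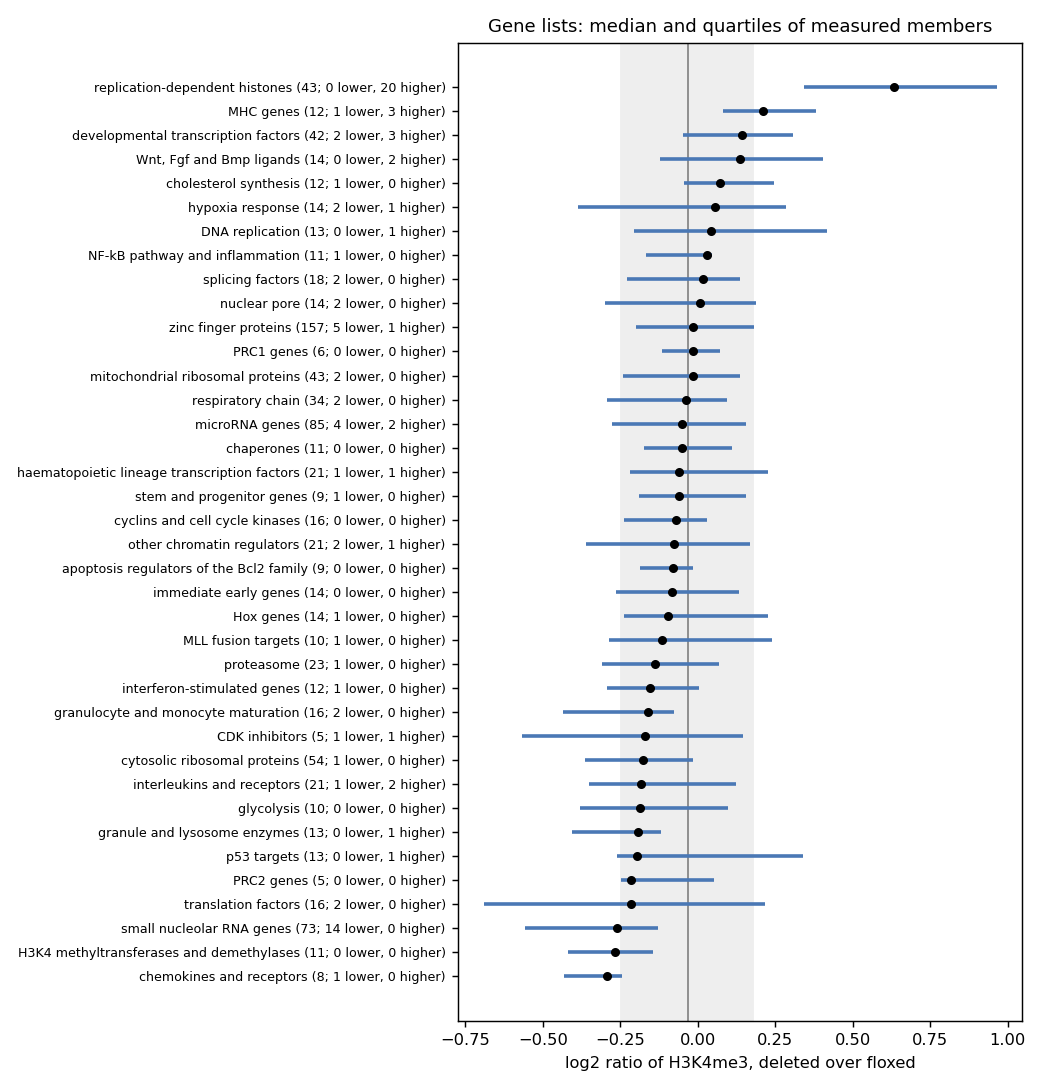
Median (point) and quartiles (bar) of the log2 ratio of H3K4me3, deleted over floxed, for measured members of 38 gene lists, with the number measured and called in each direction; the grey line and band are the median and quartiles of all 6867 measured genes. The histone list lies farthest to the right at 0.63. The snoRNA list, at -0.26, is not the farthest left. Under the 5 other scalings its median ran from -0.32 to -0.06, and that of the chemokine list from -0.35 to -0.10. Medians of 10 lists (histones, MHC, developmental transcription factors, Wnt, Fgf and Bmp ligands, cholesterol synthesis, PRC2, translation factors, snoRNA, H3K4 methyltransferases and demethylases, chemokines) kept their sign under 5 other scalings and the rest did not.

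Myeloid identity was checked on markers. The 16 myeloid markers held 1053, 570 and 642 counts, and all 3 libraries carried the mark at Spi1 (111, 58 and 69 counts), Cebpa (67, 49 and 39) and Cebpe (188, 109 and 116), transcription factors of granulocytes and monocytes. Their pooled ratio was 0.830 (0.748 to 0.920). Less mark per cell and fewer cells carrying it cannot be told apart in these bulk libraries. Elane, the gene of neutrophil elastase, had 91, 28 and 58 counts and was lower at 0.472 (0.297 to 0.728). Ly6c2, which encodes a monocyte surface antigen, was lower with 42, 14 and 18 counts. Ctsg (170, 76 and 102 counts), Mpo (89, 49 and 32) and Csf3r (92, 45 and 59) were not called. In the longer list of granulocyte and monocyte maturation 2 of 16 measured genes were lower and none higher. Over all measured genes 4.50% were lower and 3.19% higher. The list median was -0.16 and turned to 0.03 under the ribosomal protein scaling. Of the myeloid markers, Csf1r, Csf2ra, Cd33 and Lyz2 held at most 12 counts in any library. Markers of other blood lineages held fewer counts. The 8 B-cell markers held 37, 37 and 26 counts, of which Ebf1 alone had 32, 25 and 17. The 11 T-cell and NK-cell markers held 13, 18 and 19, with 6 at 0 in floxed and 4 in deleted. Mast cell, basophil and eosinophil markers held 2, 3 and 2, and erythroid and megakaryocyte markers 64, 45 and 36. The stromal and endothelial list held 330, 204 and 186, most of it at Cxcl12 (141, 77 and 58) and Vim (118, 65 and 86), windows above the median measured floxed count of 80. The part of such cells in the results was not tested.

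At genes that the MLL fusion is known to drive, Hoxa10 was lower with 87, 35 and 41 counts, a ratio of 0.617 (0.404 to 0.923). Hoxa9 had 220, 120 and 105 counts, Cdk6 152, 78 and 92, and Jmjd1c 211, 147 and 137, and none of these was called. The list had 1 lower gene of 10 measured and a median of -0.12, which changed sign with the scaling. Other known targets in it fell below the count minimum, among them Meis1 (4, 3 and 1 counts), Myb (4, 3 and 0) and Flt3 (1, 0 and 0). The list median therefore does not describe them. Among haematopoietic lineage transcription factors, Id1, an inhibitor of helix-loop-helix factors, was lower with 91, 37 and 67 counts. Hhex, the gene read as floxed, was higher with 60, 68 and 130 counts, a ratio of 1.74 (1.21 to 2.50). Its window is not tied to the deleted stretch and does not check the deletion, and rescue cells carry an added Hhex copy.

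The series title places the question on Cdkn2a, and the family of cell cycle inhibitors it belongs to had calls in both directions. Cdkn2a, the gene of p16 and p19ARF, had 46, 20 and 39 counts and was not called. Its ratio was 0.667 (0.374 to 1.15), with a log2 ratio of -0.57. Where the single window lies in the gene is not stated, so the count cannot be assigned to either product. The neighbouring gene Cdkn2b had 0, 0 and 1 counts, too few for a ratio. Whether its window covers its promoter is not known, so these counts do not show a promoter without the mark. Cdkn1a, which encodes p21, had 58, 73 and 52 counts and was higher at 1.93 (1.35 to 2.77), and Cdkn2c, which encodes p18, had 36, 11 and 16 and was lower at 0.469 (0.215 to 0.941). Cdkn1b with 47, 34 and 31 counts and Cdkn2d with 45, 26 and 27 were not called. Cdkn1a was also the single called gene among 13 measured p53 targets, beside 7.69% called over all measured genes. In the Bcl2 family of apoptosis regulators none of 9 measured genes was called.

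Genes for the enzymes that write and remove H3K4 methylation had no called member among 11 measured, yet 9 lay below 0. Their windows held 977, 551 and 639 counts, a ratio of 0.865 (0.778 to 0.961), and the median of -0.27 stayed below 0 under the 5 other scalings, between -0.33 and -0.07. PRC2 genes had 0 called of 5 measured and PRC1 genes 0 of 6. Of other chromatin regulators Kat6a, a histone acetyltransferase gene that is itself a fusion partner in leukemia, was lower with 70, 20 and 52 counts.

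Genes that carry the Polycomb mark leaned to higher H3K4me3 in the deleted library. The measured genes were put into 10 classes by H3K27me3 density over the gene span in the floxed line, a readout that the H3K4me3 ratio did not use. In the class with the most H3K27me3, 9.17% were higher and 1.60% lower, with a median log2 ratio of 0.15. The 1060 measured genes with no floxed H3K27me3 count fill the first class and part of the second. Of these, 73 were lower (6.89%) and 42 higher (3.96%), with a median of -0.11, and 18 of the higher ones were histone genes. Short genes such as snoRNA genes can lack an H3K27me3 count by their span alone, and their part in this set was not tested. Another scaling shifts all classes together. Of 167 developmental transcription factors 42 were measured. Windows of the whole list held 4051, 3033 and 2687 counts, a ratio of 1.15 (1.10 to 1.20) beside 0.998 (0.898 to 1.11) for the 1484 pooled windows of olfactory and vomeronasal receptor and keratin-associated genes. The median of the developmental list, 0.14, lay above 0 under each scaling. Calls within the list of developmental factors went both ways. Lhx2 (38, 47 and 42 counts), Six2 (20, 26 and 19) and Foxl2 (71, 87 and 44) were higher, and Evx2 (67, 26 and 40) and Foxo1 (99, 42 and 65) lower. Among Wnt, Fgf and Bmp ligands Fgf10 (28, 33 and 38) and Fgf2 (51, 51 and 13) were higher of 14 measured, with a pooled ratio of 1.14 (1.03 to 1.26).

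Lower H3K27me3 in the deleted library came without higher H3K4me3 at most genes. Both marks were measured at 2231 genes, where H3K27me3 was lower at 8.11% and higher at 3.36%, and H3K4me3 lower at 2.60% and higher at 6.23%. Of the 181 genes with lower H3K27me3, 13 had higher H3K4me3, or 7.18%, close to the 6.23% among all 2231. Their median H3K4me3 log2 ratio was 0.10 against 0.07 for genes whose H3K27me3 was not called. Pearson's r between the 2 log2 ratios across genes was -0.08 and Spearman's rho -0.05, a description over genes of the same lines. Those 13 genes, chosen after their values were seen, included Adm, Slc4a3, Slc28a2, Lhx2, Six2 and the class I MHC genes H2-Q6, H2-Q7 and H2-Q10. The reverse, lower H3K4me3 with higher H3K27me3, was found at 2 genes, Nlrp3 and Rhbdd1. Nlrp3, the sensor of an inflammasome, had 40, 8 and 20 H3K4me3 counts and 62, 466 and 87 H3K27me3 counts. Its H3K4me3 ratio was 0.307 (0.124 to 0.664).

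Adm, which encodes the vasodilator peptide adrenomedullin, had the highest H3K4me3 ratio. The floxed window held 23 counts, the deleted one 84 and the rescue one 6. In CPM these are 35.6, 200 and 15.2, so the deleted library stands far above both others, at 5.60 (3.50 to 9.31) times floxed. Slc4a3, an anion exchanger gene, had 28, 51 and 6 counts, with deleted at 2.79 (1.73 to 4.60) times floxed. Slc28a2, a nucleoside transporter gene, had 37, 50 and 1. In these 3 windows the rescue level lay below floxed as well as deleted. Adm is known as a hypoxia-induced gene. The hypoxia list had 14 measured members, 2 lower (against 4.50% of all measured genes) and 1 higher (against 3.19%). The list median was 0.06 and ran from -0.006 to 0.25 over the scalings. A part of hypoxia in the Adm ratio was not tested. Mir210, the gene of a hypoxia-induced microRNA, was lower with 137, 32 and 73 counts, a ratio of 0.358 (0.236 to 0.530), and Bhlhe40, a transcriptional repressor, was lower with 54, 19 and 38. Pgk1 (39, 19 and 73 counts), Ldha (102, 90 and 69) and P4ha2 (106, 87 and 26) were not called.

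The microRNA windows were called about as often as all genes. Mature products of called members are shown to tell these short genes apart, with the seed (bases 2 to 8) in capitals, from RefSeq. No seed is shared between them.
mmu-miR-210-3p: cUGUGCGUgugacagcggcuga
mmu-miR-26b-5p: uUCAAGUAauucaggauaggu
mmu-miR-33-5p: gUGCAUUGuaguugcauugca
mmu-miR-146b-5p: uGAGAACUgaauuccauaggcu
Of 649 microRNA windows 85 were measured, with 4 lower (4.71%, against 4.50% of all measured genes) and 2 higher (2.35%, against 3.19%). Besides Mir210, Mir26b (33, 7 and 6 counts), Mir1931 (70, 28 and 29) and Mir1893 (63, 22 and 26) were lower. Mir33, in an intron of the sterol regulator gene Srebf2, had 34, 37 and 17 counts and was higher, as was Mir146b with 56, 60 and 52. The pooled ratio of the list was 0.985 (0.953 to 1.02). A microRNA window within another gene cannot be told apart from the signal of that gene.

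Immune genes gave scattered calls, to be read beside 4.50% lower and 3.19% higher over all measured genes. Of 12 measured MHC genes H2-Q6 (75, 100 and 40 counts), H2-Q7 (117, 119 and 48) and H2-Q10 (81, 92 and 47) were higher. They are near-identical neighbours on chromosome 17 and may share reads. H2-Ab1, a class II antigen-presenting chain, was lower with 88, 36 and 48 counts. Cd80, a ligand that co-stimulates T cells, was higher with 25, 43 and 22. Xcr1, a chemokine receptor of dendritic cells, was lower with 49, 11 and 24, and Irak2, a kinase of interleukin-1 and Toll-like receptor signalling, with 76, 22 and 33. Xcr1 was the only call in the chemokine list, whose median stayed below 0 under the 5 other scalings, between -0.35 and -0.10. The interleukin receptor gene Il17ra was lower (123, 51 and 82), while Il13ra1 (64, 65 and 52) and the cytokine gene Il1f9 (46, 52 and 25) were higher. Of 12 measured interferon-stimulated genes Ifi35 was lower with 68, 27 and 42 counts, and of 14 immediate early genes none was called. In metabolism, Dhcr7, the last enzyme of cholesterol synthesis, was lower with 35, 10 and 18 counts, the single call among 12 measured. In the lysosomal enzyme list the cathepsin gene Ctsh was higher with 54, 64 and 28.

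Among genes outside the lists whose intervals lay farthest from 1, functions varied. Lower genes included Lmbrd1, a lysosomal cobalamin exporter, with 48, 9 and 26 counts, and Ube3a, a ubiquitin ligase gene, with 68, 17 and 14. Spcs1, a signal peptidase subunit, had 39, 7 and 13 counts, Clic1, a chloride channel protein, 117, 38 and 59, and the kinase gene Sgk1 51, 13 and 19. Higher genes included Cep55, which acts in cytokinesis, with 40, 56 and 58 counts, Lrrcc1, a centrosomal protein, with 69, 91 and 45, and Plxna2, a semaphorin receptor, with 52, 69 and 26. Tcf15, a helix-loop-helix factor of the early mesoderm, had 41, 60 and 23. In the zinc finger protein list 5 of 157 measured were lower (3.18%, against 4.50% of all measured genes) and 1 higher (0.637%, against 3.19%), Zfp955b, and the pooled ratio was 1.0 (0.975 to 1.03).

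**Figure D5:**
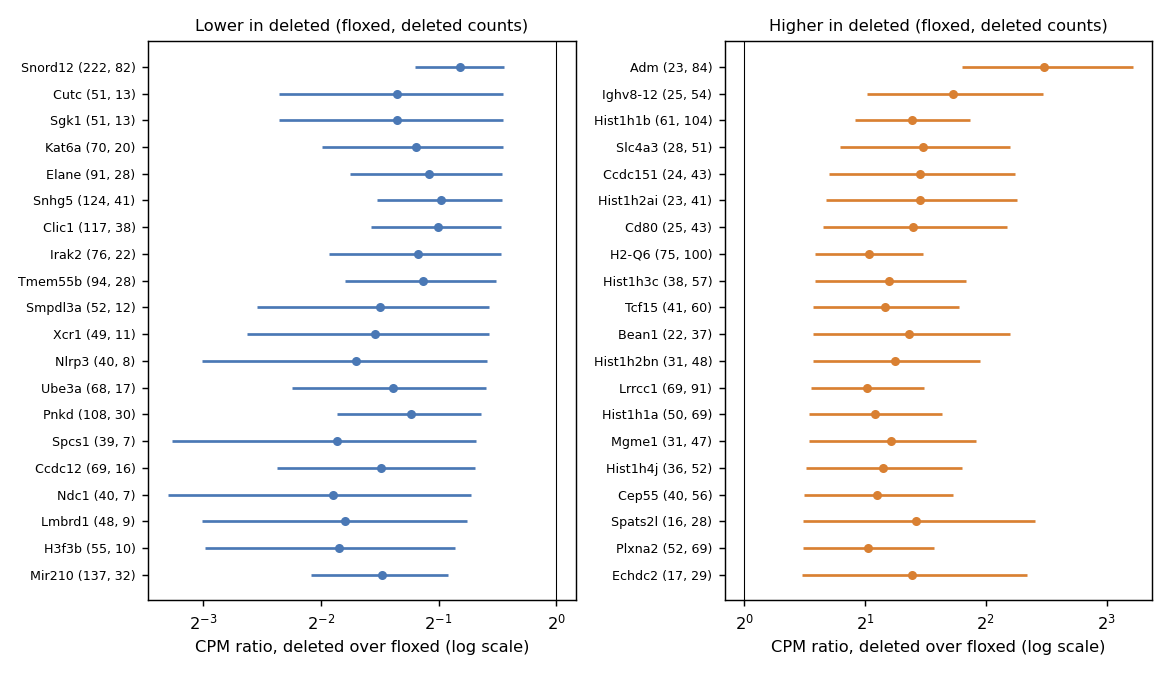
CPM ratio of H3K4me3, deleted over floxed, on a log axis with 95% counting intervals for the 20 lower and 20 higher genes whose nearer interval bound lies farthest from 1; floxed and deleted counts stand beside each name. The lowest counts, as 40 and 7 at Ndc1, go with the widest intervals, and Adm reaches 5.60.

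Ratios varied more among genes with little of the mark, where counting error is also larger, and the share of each was not tested. In 10 classes of equal size by mean CPM, the lowest had a median level of 46.1 CPM, a median log2 ratio of -0.12, an SD over genes of 0.58, and 68 lower and 32 higher genes. The highest class had 274 CPM, a median of 0.02, an SD of 0.21, and 2 genes called in each direction. The median of the lowest class depends on the library that sets the classes: with classes by the rescue library it was 0.06, with 42 lower and 77 higher. CpG content of the promoter ordered the ratios little, with class medians between -0.05 and 0.01.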

How the data were processed

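The H3K4me3 and H3K27me3 values are whole-number counts per gene, deposited by the authors without normalization. Per the submitters' processing notes, featureCounts was used with build mm10 and MACS2, versions not stated; the aligner and the strand setting are not given in the sources used here. H3K27me3 was counted over gene spans with a median of 12257 bp. For Flag the authors deposited summits with their −log10 scores, and only the positions were used. Rows without a symbol (568 of 27179, 0.702% to 0.739% of H3K4me3 counts) were left out of totals and comparisons.

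Counts were scaled to CPM over named genes with Python 3.11.15, pandas 2.3.3 and scipy 1.17.1. For log2 ratios 1 prior count was added, scaled to library size. The deleted library held 0.652 times the counts of floxed, which sets the precision together with the low counts per window. Other scalings came from edgeR 4.0.16 and DESeq2 1.42.0 under R 4.3.3 and were used for library factors, with no test. The calling rule was run on simulated Poisson counts, which carry counting error only. That run therefore says nothing about variation between libraries. H3K27me3 classes and calls used the same rule and the same minimum of 20 counts.

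The members and the 39 gene lists were chosen with earlier results of these data known. Named genes are Hhex and the CDK inhibitors, the 20 lower and 20 higher called genes whose nearer interval bound lies farthest from 1 (predicted genes skipped), every called list member, the 3 list members of highest level, and the 10 genes of highest level. The text describes a selection of them. RefSeq (GRCm38.p6) gave positions for 6742 of 6867 measured genes and promoters for 5284, of which 4335 have a single start. The promoter sequences of other genes were not used here. Alternatives changed the scaling, the count minimum, the fold, the interval, the prior count, the genes kept and the library that sets level classes.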

Additional observations from a re-analysis of the deposited data

How the results depend on the processing

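The counts of lower and higher genes (309 and 219) were 112 and 584 when scaled to ribosomal protein windows, where the median of all genes shifted by 0.20 on the log2 scale. With a minimum of 50 counts they were 144 and 97, with a 2-fold rule 86 and 56, and with a 99% interval 127 and 110. Without a filter they were 354 and 507. TMM factors gave 419 and 153 and a shift of -0.06. Histone genes called higher (20) numbered 6 of 11 at a minimum of 50 counts and 11 at 2-fold. These alternatives and those for snoRNA genes were chosen after seeing the data. The snoRNA genes called lower (14) numbered 5 with ribosomal protein scaling, 9 at a minimum of 50 counts, 0 at 2-fold and 7 with a 99% interval. The median of the lowest level class went from -0.12 to 0.059 with classes set by rescue. Fewer genes tested or a stricter rule accounts for the smaller counts by construction; otherwise the cause was not tested. Of 114 named called genes 83 were still called under ribosomal protein scaling, 106 with TMM and 109 with DESeq2 factors, and none reversed under any of these. Of 273 list medians recomputed, 230 moved by less than the spread over members and 43 by more. No paired analysis was possible because each line has 1 library of the mark. Depth limits low windows: 3 counts are 4.65 CPM in floxed and 7.13 CPM in deleted.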

Other observations

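Flag summits lay near few genes of any kind. Within 10 kb of the gene span, a rescue summit lay at 1 of 304 lower genes with a position (Prpf6), at 1 of 215 higher genes (Hhex) and at 31 of 6223 genes not called, or 0.498%. In the floxed library, which carries no Flag tag by its label, the counts were 4 of 304 lower genes (1.32%: Diap2, Dock8, Mocos and Ube3a), 2 of 215 higher genes (0.930%, Hhex among them) and 0.418% of genes not called. In the deleted library, also without the tag, they were 0 of 304, 2 of 215 (Cdkn1a and Hhex) and 0.354%.

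Some genes in domains with less H3K27me3 in the deleted library, chosen after their values were seen, had little H3K4me3 and others had more. Sbf2 had 0, 2 and 0 H3K4me3 counts in floxed, deleted and rescue, and Chpf 2, 2 and 1. Tmem198, the neighbour of Chpf, had 87, 59 and 38 counts and a ratio of 1.04. By chromosome, median H3K4me3 log2 ratios ran from -0.08 on chromosome 11 to 0.05 on chromosome 13. The share of higher genes on chromosomes other than 13 ran from 1.36% on chromosome 11 to 4.17% on X.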
